A study of Homo sapiens with 12 samples.

Results

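Transcript levels are described here for 9 genes that write or erase the histone marks around PHF19 and the Polycomb repressive complex PRC2: the H3K27 demethylases KDM6A and KDM6B, the H3K36 methyltransferases SETD2, NSD1 and ASH1L, and the demethylases KDM2A, KDM2B, KDM4A and KDM4B, which act on H3K36. They were taken by name, with earlier results of these data known, from the 29972 gene rows of each of 2 deposited tables. All 9 were present and tested in both. PRC2 places methyl groups on lysine 27 of histone H3, a mark of silenced genes, and KDM6A and KDM6B remove them. Methylation of lysine 36 marks transcribed gene bodies and hinders PRC2, and PHF19 is a PRC2 subunit whose Tudor domain binds methylated lysine 36. The writers and erasers of both marks are therefore the enzymes that set the chromatin on which PHF19 acts.

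The study asks how loss of PHF19 alters transcription in triple-negative breast cancer cells. MDA-MB-436 and BoM-1833 cells, the latter a bone-selected derivative of the MDA-MB-231 line, were reverse transfected with 5 nM siRNA in total and used 72 h later. The control group of each line received siNT, a non-targeting pool from Dharmacon, and the treated group siPHF19, an equal mixture of 2 siRNAs against PHF19 from another supplier. Each of the 4 groups held 3 libraries from a stranded mRNA kit, 12 in all; the labels do not say whether these came from separate cultures, so p-values measure the spread between libraries, which may be technical. Each line was treated with 1 mixture, so the siRNAs cannot be told apart from each other, nor their target from their other effects. In bulk RNA, fewer cells in a given state and less RNA per cell cannot be told apart.

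Reads assigned to genes ranged from 15.2 to 24.0 M per library of MDA-MB-436 and 13.7 to 21.3 M per library of BoM-1833. The 9 genes had between 476 and 5428 reads per library in the former line and between 288 and 3083 in the latter. PHF19, the targeted gene, ran from 2942 to 3763 normalized counts in the MDA-MB-436 controls and from 315 to 340 after siPHF19; for BoM-1833 the means were 1688 and 185. It fell to 10.9% of its control mean in BoM-1833 and 9.75% in MDA-MB-436. Among markers of breast cancer subtype, ESR1 and PGR did not exceed 0.241 reads per M in any library, the third receptor, ERBB2, lay between 48.7 and 69.8, and VIM between 977 and 4546. Of 10 markers of leukocytes, endothelium and fibroblasts, CD3E and DCN had no read in any library, while CD14 reached 17.6 reads per M in MDA-MB-436, and PECAM1 24.0 and PDGFRB 16.4 in BoM-1833. CD14 was lower after siPHF19 in MDA-MB-436 (14.5 to 17.6 in siNT, 11.9 to 13.5 in siPHF19, DESeq2 adjusted p = 0.0399). The PDGFRB range lay higher after siPHF19 in BoM-1833 (9.60 to 12.8 in siNT, 14.1 to 16.4 in siPHF19). That rise did not pass an adjusted p of 0.05 (DESeq2 adjusted p = 0.0636). Neither gene's groups overlapped, which also held for 42.2% of all genes tested in the former line and 31% in the latter. The part of CD14 and PDGFRB in the results was not tested. The control library siNT replicate 1 stood apart in both lines. With genes split into 5 classes by summed exon length, the median deviation of the longest class from the mean of the line, minus that of the shortest, was -0.25 (log2) in MDA-MB-436 and -0.17 in the other line. In siNT replicate 3 the same differences were 0.12 and 0.16. Since 6 of the 9 genes belong to the longest class (all but KDM6A, KDM6B and KDM4A), values without these libraries are given wherever they change a call.

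In MDA-MB-436, 3 of the 9 genes passed the test after PHF19 knockdown: both H3K27 demethylases rose, KDM6A by 1.41-fold and KDM6B by 1.38-fold, and the demethylase KDM4A fell to 79.7% of its control mean. In BoM-1833, 1 of 9 passed, and it was again KDM4A, which fell to 82.1%. A gene was called at a Benjamini-Hochberg adjusted p under 0.05 in the authors' deposited DESeq2 Wald test, adjusted over all genes tested. By that rule 22.1% of all genes tested were called in MDA-MB-436 (10.5% higher and 11.5% lower) and 10.9% in BoM-1833 (5.21% higher and 5.72% lower), so that 3 of 9 and 1 of 9 are counts close to those shares. The 3 H3K36 methyltransferases, KDM2A, KDM2B and KDM4B were called in neither line. The median log2 fold change of the 9 genes was -0.04 in BoM-1833 and 0.09 in MDA-MB-436, beside -0.00 over all genes tested in each line.

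**Figure D1:**
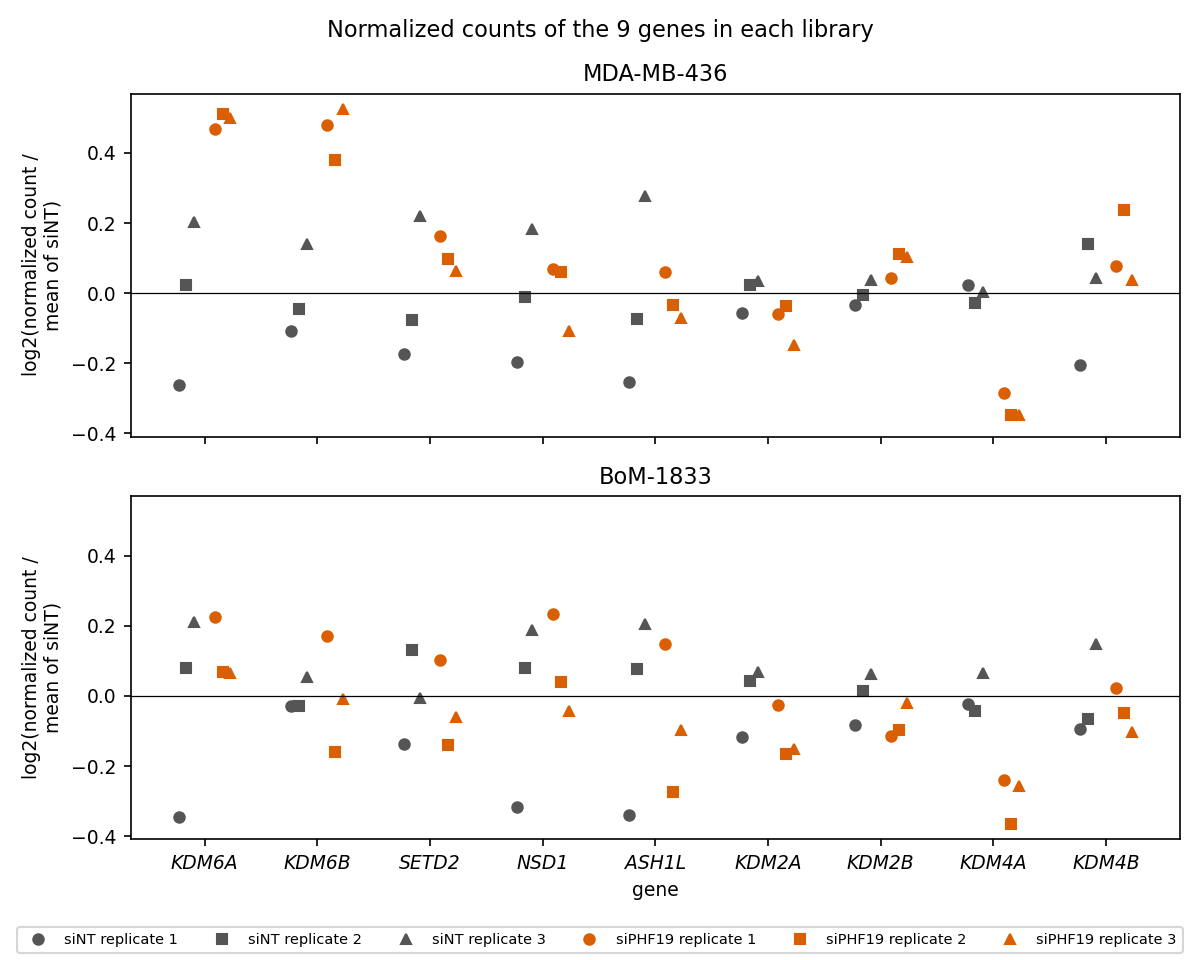
Each point is 1 library; the y axis gives log2 of the gene's normalized count over the mean of the 3 siNT libraries of its line (grey siNT, orange siPHF19; symbols give the replicate number). KDM6A and KDM6B separate by group in MDA-MB-436 and not in BoM-1833, and KDM4A separates in both. The lowest grey symbol of most genes is siNT replicate 1.

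KDM6A (UTX), on chromosome X (44873177 to 45112602, plus strand, GRCh38), encodes an H3K27 demethylase that works inside the KMT2C and KMT2D complexes of the COMPASS family, which methylate H3K4 at enhancers. In MDA-MB-436 its normalized counts, which are reads scaled by the size factor of the library, were 648, 791 and 895 in the siNT libraries (replicates 1 to 3, here and below) and 1077, 1108 and 1099 after siPHF19. All treated libraries lay above all controls, and the control spread (778 ± 124, SD, n = 3) was wider than the treated one (1095 ± 16, SD, n = 3). The log2 fold change in the authors' deposited table was 0.49 (standard error 0.11, DESeq2 adjusted p = 0.000198). In BoM-1833 the counts were 260, 350 and 383 in siNT and 386, 347 and 346 in siPHF19. These groups overlapped, with siNT replicate 1 alone below the rest. The deposited table of the authors gives 0.13 for KDM6A there (95% interval -0.15 to 0.41, DESeq2 adjusted p = 0.704).

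The low control of KDM6A is siNT replicate 1 in both lines. Without it the rise in MDA-MB-436 was 0.38 (DESeq2 on recovered reads, adjusted p = 0.000279), and the gene passed the threshold under each of the 15 alternative settings tried, with adjusted p between 1.79e-07 and 0.00734. The difference of the fold changes between lines was 0.37 (95% interval 0.01 to 0.73), which did not pass after adjustment over 12290 genes (z test on the DESeq2 estimates, adjusted p = 0.293). It passed in 1 of 15 alternatives, the one without BoM-1833 siNT replicate 1 (0.52, DESeq2 z test adjusted p = 0.0414, range over alternatives 0.0414 to 0.677).

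KDM6B (JMJD3), on chromosome 17 (7839904 to 7854796, plus strand), is the inducible H3K27 demethylase, known for its response to inflammatory and stress signals. Normalized counts in MDA-MB-436 were 1400, 1463 and 1662 in siNT and 2102, 1964 and 2170 in siPHF19. The lowest treated library lay above the highest control. The rise was 0.46 on the log2 scale in the authors' deposited table (standard error 0.09, DESeq2 adjusted p = 3.12e-06), and it passed under 15 of 15 alternatives. In BoM-1833 the counts were 615, 616 and 653 in siNT and 707, 563 and 625 in siPHF19. The highest and the lowest of these 6 values were both treated libraries. The fold change was 0.01 in the authors' deposited table (95% interval -0.19 to 0.21, DESeq2 adjusted p = 0.978), an interval that lies below the estimate in MDA-MB-436.

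The KDM6B response was the 1 among the 9 that differed between lines, by 0.45 (95% interval 0.19 to 0.72, z test on the DESeq2 estimates, adjusted p = 0.0237), where 4.89% of genes tested in both lines did. This call was lost in 8 of 15 alternatives, with adjusted p from 0.00231 to 0.182. It was lost without siNT replicate 2, siNT replicate 3, siPHF19 replicate 2 or siPHF19 replicate 3 of BoM-1833, and without siNT replicate 2, siPHF19 replicate 1 or siPHF19 replicate 3 of MDA-MB-436. Leaving out single libraries moved the difference between 0.38 and 0.54, above 0 each time.

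SETD2, on chromosome 3 (47016429 to 47163967, minus strand), is the enzyme that trimethylates H3K36 while travelling with elongating RNA polymerase II. In MDA-MB-436 its normalized counts were 1983, 2120 and 2604 in siNT and 2504, 2394 and 2337 in siPHF19, and the groups overlapped through siNT replicate 3. The log2 fold change of SETD2 was 0.11 in the authors' deposited table (95% interval -0.09 to 0.31, DESeq2 adjusted p = 0.488). Without siNT replicate 3 it was 0.23 and was called (DESeq2 on recovered reads, adjusted p = 0.0107, range over 15 alternatives 0.0107 to 0.845). In BoM-1833 the controls spanned 1747 to 2102 and the treated libraries 1744 to 2061. These ranges nearly coincide, and the authors' deposited table gives -0.03 (95% interval -0.19 to 0.14, DESeq2 adjusted p = 0.918).

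NSD1, on chromosome 5 (177133025 to 177300215, plus strand), deposits dimethylated H3K36, largely between genes, and is mutated in Sotos syndrome. Its counts in MDA-MB-436 ran from 3700 to 4809 in siNT and from 3932 to 4449 in siPHF19. The treated range lay inside the control range, and the fold change was 0.01 in the authors' deposited table (95% interval -0.19 to 0.21, DESeq2 adjusted p = 0.959). In BoM-1833 the counts ran from 1403 to 1992 in siNT and from 1696 to 2052 in siPHF19, again overlapping. The log2 fold change there was 0.08 in the authors' deposited table (95% interval -0.13 to 0.29, DESeq2 adjusted p = 0.754). Exons of NSD1 overlap the pseudogene PRMT1P1 on the opposite strand, whose part in the NSD1 counts was not tested.

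ASH1L, on chromosome 1 (155335268 to 155562807, minus strand), is a Trithorax-group H3K36 dimethyltransferase that opposes Polycomb silencing. In MDA-MB-436, siNT spanned 1206 to 1740 and siPHF19 1368 to 1498. The treated libraries were again inside the control range, with a fold change of -0.01 in the authors' deposited table (95% interval -0.25 to 0.23, DESeq2 adjusted p = 0.959). In BoM-1833, siNT spanned 822 to 1198 and siPHF19 859 to 1150. The authors' deposited table gives -0.06 for ASH1L in that line (95% interval -0.31 to 0.18, DESeq2 adjusted p = 0.863). For the 3 methyltransferases the intervals leave out changes beyond 0.31 on the log2 scale in either direction and line.

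In siNT replicate 1, 8 of the 9 genes had their lowest control value in MDA-MB-436 and 8 of 9 in BoM-1833. In siNT replicate 3, 7 of 9 were highest in MDA-MB-436 and 8 of 9 in BoM-1833. The median deviation of the 9 genes from the mean of the line was -0.22 and -0.07 (log2) in the first of these libraries, and 0.07 and 0.16 in the other. A further fit, chosen after the data had been seen, removed the length trend of each library. KDM6A, KDM6B and KDM4A, which are outside the longest class, had fold changes of 0.48, 0.44 and -0.33 in MDA-MB-436 in that edgeR fit. Genes of the longest class moved as well: KDM2B from 0.09 to 0.04 in MDA-MB-436, and NSD1 from 0.08 to 0.14 in BoM-1833. The part of gene length in the fold changes was not tested.

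**Figure D2:**
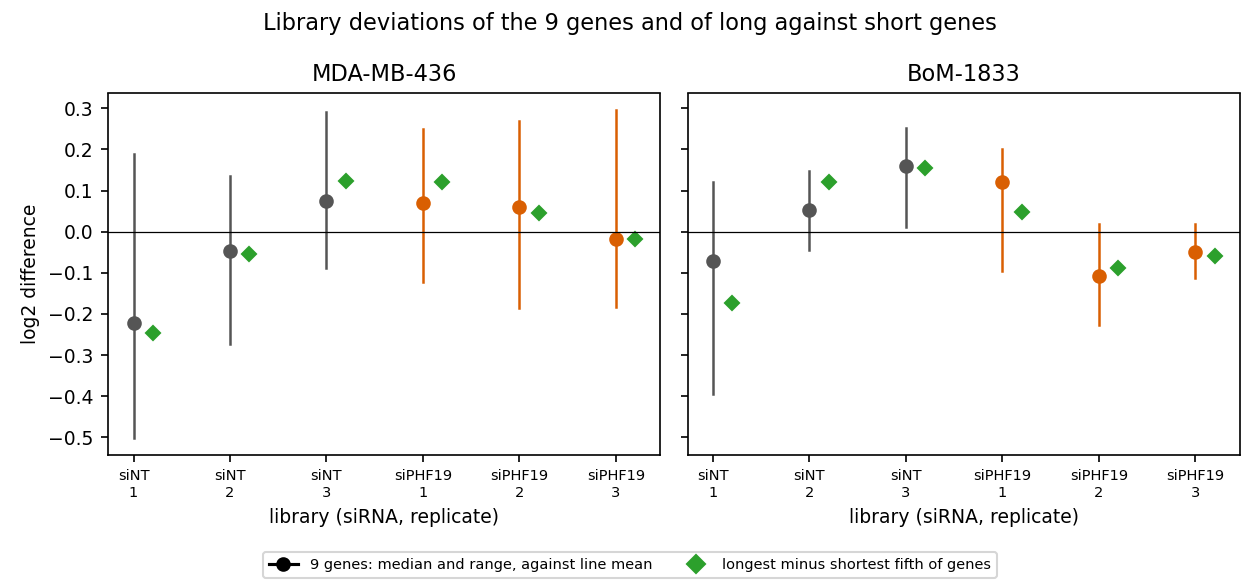
The x axis gives the 12 libraries by siRNA and replicate, with 1 panel per line, and the y axis a log2 difference. Circles are the median deviation of the 9 genes from the mean of the line, and bars run from the lowest to the highest gene. Green diamonds are the median deviation of the longest of 5 length classes of genes minus that of the shortest. For siNT replicate 1 of MDA-MB-436 the diamond is at -0.25 and the circle at -0.22.

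Among the erasers, KDM2A (FBXL11), on chromosome 11 (67119269 to 67258087, plus strand), binds unmethylated CpG islands and removes dimethyl H3K36 there. Its counts in MDA-MB-436 were 3215 to 3425 in siNT and 3017 to 3263 in siPHF19. The ranges overlapped, and the authors' deposited table gives -0.08 (95% interval -0.21 to 0.05, DESeq2 adjusted p = 0.441). In BoM-1833 they were 2447 to 2781 in siNT and 2367 to 2607 in siPHF19, overlapping through siNT replicate 1, with a log2 fold change of -0.11 in the authors' deposited table (95% interval -0.25 to 0.03, DESeq2 adjusted p = 0.414). Leaving out that library gave -0.16, past the threshold (DESeq2 on recovered reads, adjusted p = 0.0459, range over 15 alternatives 0.0459 to 0.791).

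KDM2B (FBXL10), on chromosome 12 (121429097 to 121581015, minus strand), recruits a variant Polycomb complex, PRC1.1, to CpG islands. Its counts in MDA-MB-436 were 1231, 1258 and 1295 in siNT and 1301, 1363 and 1355 in siPHF19. The groups did not overlap, as held for 4 of the 9 genes (with KDM6A, KDM6B and KDM4A) and for 42.2% of all genes tested in that line. The difference was nevertheless small, 0.09 in the authors' deposited table, and not called (95% interval -0.06 to 0.23, DESeq2 adjusted p = 0.446). In BoM-1833 the groups overlapped, at 887 to 982 in siNT and 868 to 926 in siPHF19, with -0.08 in the authors' deposited table (95% interval -0.24 to 0.09, DESeq2 adjusted p = 0.698). The exons of KDM2B overlap those of RNF34 and AC145422.1 on the opposite strand. No value is shown for AC145422.1. RNF34 averaged 759 normalized counts in MDA-MB-436 and was called higher there (log2 fold change 0.25, DESeq2 adjusted p = 0.0218). In BoM-1833 it averaged 924 and was not called (0.10, DESeq2 adjusted p = 0.567). The part of RNF34 or AC145422.1 reads in the KDM2B counts was not tested. The library kit was stranded per the labels, but the strand setting of the counting is not given in the sources used here.

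KDM4A (JMJD2A), on chromosome 1 (43650158 to 43705515, plus strand), removes trimethyl groups from H3K9 and H3K36. In MDA-MB-436 its normalized counts were 1741, 1680 and 1715 in siNT and 1404, 1344 and 1346 in siPHF19. All controls lay above all treated libraries, with means of 1712 ± 30.8 and 1365 ± 34.2 (SD, n = 3 each). KDM4A fell by 0.33 on the log2 scale in the authors' deposited table (standard error 0.07, DESeq2 adjusted p = 7.2e-05), and the call held under 15 of 15 alternatives.

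In BoM-1833 the KDM4A counts were 940, 927 and 999 in siNT and 810, 742 and 800 in siPHF19. The groups did not overlap, which held for KDM4A alone among the 9 and for 31% of all genes tested in BoM-1833. The fall was 0.28 on the log2 scale, -0.28 in the authors' deposited table (standard error 0.09, DESeq2 adjusted p = 0.0124). This call was lost in 4 of 15 alternatives, among them the fits without siNT replicate 3 (DESeq2 adjusted p = 0.102), without siPHF19 replicate 2 (0.173) and without siPHF19 replicate 3 (0.0682). Its fold change stayed between -0.31 and -0.25 without any 1 library, and the adjusted p ranged from 0.00469 to 0.173 over 15 alternatives. The 2 lines differed by -0.04 for KDM4A (95% interval -0.26 to 0.18, z test on the DESeq2 estimates, adjusted p = 0.903). Of genes tested in both lines, 3.12% were called lower in both and 2.55% higher in both.

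KDM4A shares exons with 2 other annotated genes: AL451062.3 on its own strand and KDM4A-AS1 on the opposite one. AL451062.3 spans the whole of KDM4A. No value is shown for it, and its part in the KDM4A counts was not tested. KDM4A-AS1 averaged 4.64 normalized counts in BoM-1833 and 32.5 in MDA-MB-436, far under the counts of KDM4A, and it was not called in the latter (log2 fold change -0.59 in the authors' deposited table, DESeq2 adjusted p = 0.207).

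KDM4B (JMJD2B), on chromosome 19 (4969113 to 5153595, plus strand), is the paralogue of KDM4A and a known cofactor of the estrogen receptor. Its counts in MDA-MB-436 ran from 519.6 to 660.3 in siNT and from 615 to 707 in siPHF19, with overlap. The log2 fold change of KDM4B was 0.12 in the authors' deposited table (95% interval -0.11 to 0.35, DESeq2 adjusted p = 0.517). In BoM-1833 they ran from 841 to 996 and from 837 to 912, and the authors' deposited table gives -0.04 (95% interval -0.22 to 0.14, DESeq2 adjusted p = 0.884). The paralogues differed in what the test called, but the difference between them was not tested.

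**Figure D3:**
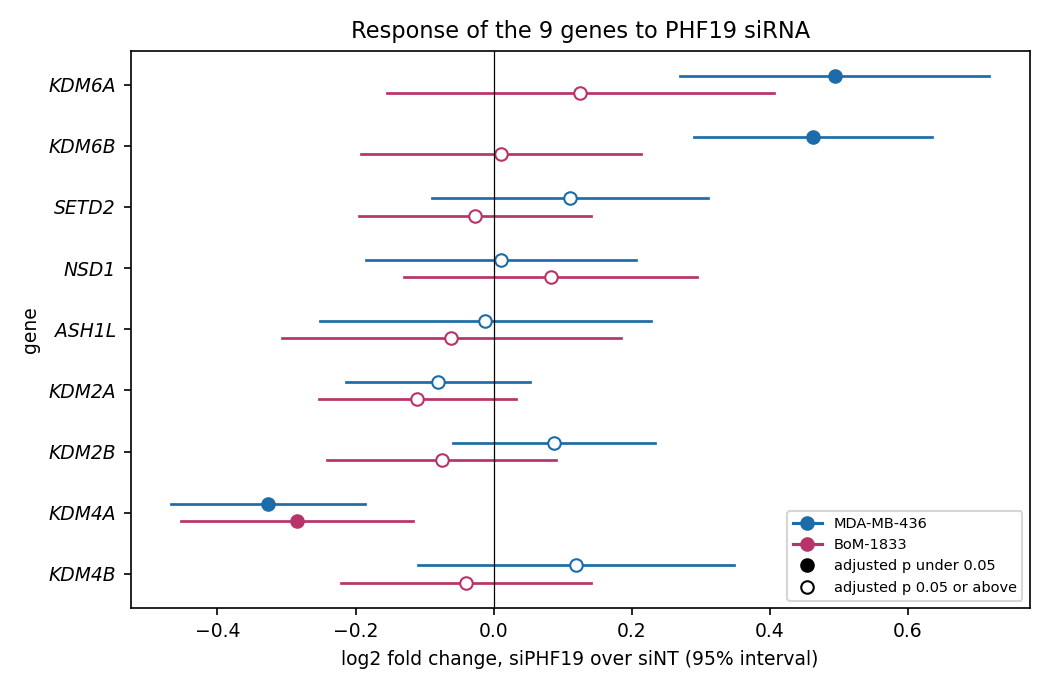
Points are the log2 fold changes of siPHF19 over siNT in the authors' deposited tables for the 9 genes in both lines, and bars their 95% intervals. The intervals of KDM6A and KDM6B in MDA-MB-436 and of KDM4A in both lines lie clear of 0.

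The 3′ UTRs of the 9 genes were searched on the transcript's strand for the hexamer AAACTG, which was picked with earlier results of these data known, since it had come up in genes lowered by siPHF19. The motif occurs in 37.97% of 18983 annotated 3′ UTRs. It was present in 5 of the 9 genes: 3 times in KDM6A, 2 times in KDM4A and once each in NSD1, ASH1L and KDM2A, and it was not found in the annotated 3′ UTRs of KDM6B, SETD2, KDM2B and KDM4B. The sites of the gene that was lower in both lines and of the gene with the most matches are shown from the GENCODE 29 transcripts (GRCh38), with 10 bases on each side and the hexamer in capitals.
KDM4A, 1, chr1:43705236-43705241 (+): taggatgaaaAAACTGgggccattgg
KDM4A, 2, chr1:43705469-43705474 (+): attattttgaAAACTGgtgcatcacc
KDM6A, 1, chrX:45111514-45111519 (+): tgctggctgaAAACTGtgtctatgca
KDM6A, 2, chrX:45111660-45111665 (+): atatctgacaAAACTGgcaacatctt
KDM6A, 3, chrX:45112199-45112204 (+): tgtgtaaataAAACTGcttagcattg
KDM6A, with 3 copies, was called higher in MDA-MB-436, and KDM4A, with 2, was called lower in both lines. KDM6B, without the hexamer, was called higher in MDA-MB-436. Across all tested genes with an annotated 3′ UTR, 14.6% of those with the hexamer and 10.6% of those without were called lower in MDA-MB-436, and 8.65% and 3.93% in BoM-1833. Called higher were 11.6% and 10.9% in MDA-MB-436, and 4.62% and 6.21% in BoM-1833. The median log2 fold changes were 0.0007 and -0.0069 in MDA-MB-436, and -0.029 and 0.016 in BoM-1833. Since the hexamer came up in lowered genes of these data, the shares called lower are no independent test of it. The genes with the hexamer also had longer 3′ UTRs, with medians of 2331 and 602 bases in MDA-MB-436. The part of the motif or of UTR length in the changes was not tested.

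Levels of different genes were set side by side as reads per kilobase of summed exon length per M reads in genes. In the MDA-MB-436 controls KDM4A (17.6 ± 0.203, SD, n = 3) and KDM2A (17.2 ± 0.867) stood highest with overlapping libraries, followed by NSD1 (14.6), SETD2 (11.8) and KDM6B (11.1), each overlapping the next. A gap separated these 5 from KDM6A (5.82), ASH1L (5.77) and KDM2B (4.93), and KDM4B was the lowest at 2.17 ± 0.293. After knockdown KDM6B, at 15.5 ± 0.766, was among the 4 highest, and KDM4A was at 14.3 ± 0.380.

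In the BoM-1833 controls the order was KDM2A (15.3), SETD2 (11.4), KDM4A (11.0), NSD1 (6.74), KDM6B (5.17), ASH1L (4.67), KDM2B (4.12), KDM4B (3.64) and KDM6A (2.77 ± 0.538, SD, n = 3). SETD2 and KDM4A overlapped, as did the neighbours from KDM6B to KDM4B. KDM6A was below every other gene there. The order rests on which length is used: with the longest transcript in place of the summed exons, KDM4B moved from rank 8 to rank 4 in BoM-1833.

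**Figure D4:**
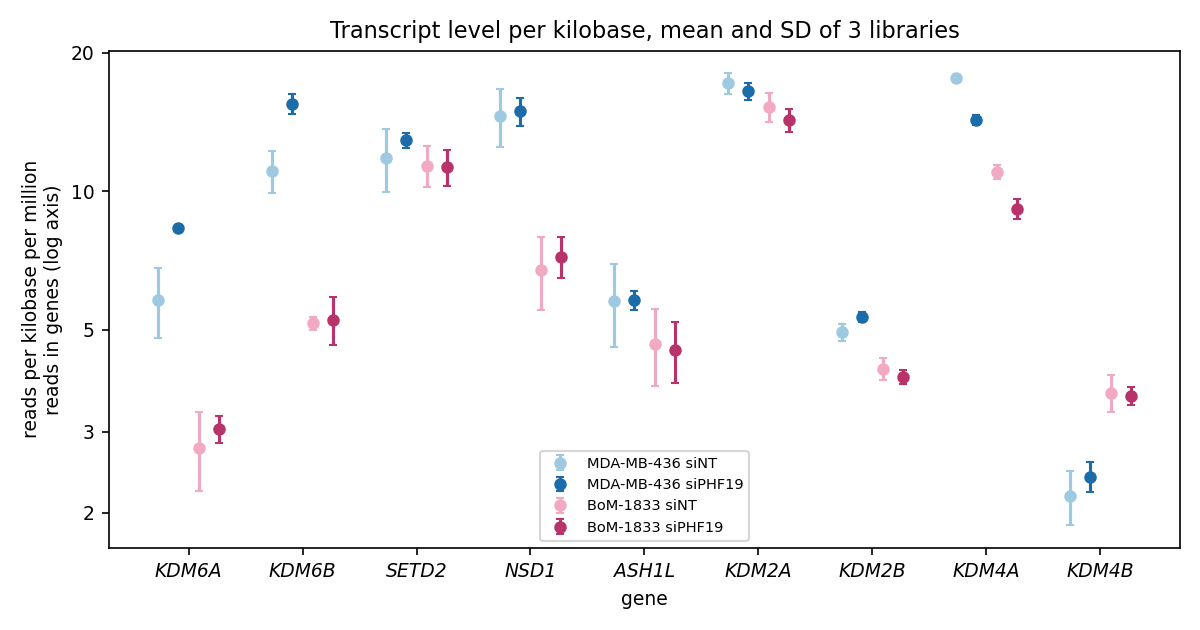
Points are means of 3 libraries, by gene, line and siRNA, and bars their SD. The y axis gives reads per kilobase of summed exons per M reads in genes, on a log scale. KDM2A is high in both lines, and KDM6A, KDM6B and NSD1 are higher in MDA-MB-436 than in BoM-1833.

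Between the control groups of the lines, whose tables were normalized separately, reads per M in genes were compared without a test. KDM6A was 2.10-fold, KDM6B 2.15-fold, NSD1 2.17-fold and KDM4A 1.60-fold higher in MDA-MB-436, with no overlap of libraries. KDM4B ran the other way, at 53.6 reads per M in BoM-1833 and 32.0 in MDA-MB-436. SETD2 (119 and 115) and ASH1L (76.7 and 62.0) overlapped between lines, and KDM2A and KDM2B were 1.13-fold and 1.2-fold higher in MDA-MB-436. KDM6A and KDM6B, called only in MDA-MB-436, had the lower control level in BoM-1833. So did KDM4A, called in both lines, and NSD1, called in neither. The part of the control level in the calls was not tested.

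Of 44 other genes of H3K36 and H3K27 methylation, 42 were tested in both lines. In MDA-MB-436, 4 were called higher and 5 lower, beside 10.5% and 11.5% of all genes tested. In BoM-1833 the authors' deposited DESeq2 table called 0 higher and 2 lower, beside 5.21% and 5.72% of all genes tested. At an unadjusted p under 0.05, 1 was higher and 5 lower in that line. The share of all genes at that threshold was not computed. By edgeR, 0 higher and 2 lower were called in BoM-1833 as well. In MDA-MB-436 edgeR and limma each called 3 higher and 4 lower, without NSD2 (adjusted p = 0.0523 by edgeR and 0.0568 by limma) and POLR2A (0.0630 and 0.0571). Both genes called in BoM-1833 were also lower in MDA-MB-436.

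SUPT16H encodes the large subunit of FACT, the histone chaperone that lets RNA polymerase II pass nucleosomes, and stood in a list of 5 elongation genes with SSRP1, SUPT6H, IWS1 and POLR2A. Its normalized counts in MDA-MB-436 were 10092, 8476 and 8506 in siNT and 4194, 4064 and 3940 in siPHF19. In BoM-1833 they were 5554, 5892 and 5542 in siNT and 3526, 3679 and 3636 in siPHF19. The groups were far apart in both lines. SUPT16H fell by 1.15 on the log2 scale in MDA-MB-436, and by 0.65 in BoM-1833, according to the authors' deposited tables (DESeq2 adjusted p = 1.07e-40 and 9.87e-26), more in the first line (difference -0.50, z test on the DESeq2 estimates, adjusted p = 8.57e-05). SSRP1, the partner of SUPT16H in FACT, was called in neither line. POLR2A, the largest subunit of RNA polymerase II, picked after its value was seen, rose by 0.15 in MDA-MB-436 according to the authors' deposited table (DESeq2 adjusted p = 0.0352).

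Among 13 readers of H3K36 methylation, PSIP1 (LEDGF), a PWWP-domain protein that binds it on transcribed genes, fell in both lines. Its counts were 3176, 2625 and 2384 against 1669, 1626 and 1572 in MDA-MB-436, and 1418, 1511 and 1479 against 1122, 1288 and 1218 in BoM-1833 (siNT against siPHF19). No library of 1 group reached the other. The fold changes of PSIP1 were -0.75 and -0.28 in the authors' deposited tables (DESeq2 adjusted p = 3.72e-11 and 0.00558), and their difference was -0.47 (z test on the DESeq2 estimates, adjusted p = 0.0116). In MDA-MB-436, 2 readers were called lower (PSIP1 and MSH6, a mismatch repair protein) and 2 higher (MORF4L1 and GLYR1), of which the last 3 were picked after their values were seen. The AAACTG hexamer, which had come up in genes lowered by siPHF19 in these data, occurs 2 times in the 3′ UTR of SUPT16H and 3 times in that of PSIP1. Among the other listed genes called in MDA-MB-436, it occurs 8 times in MSH6 and 4 times in NSD2, both lower, and 2 times in GLYR1, which was higher. It was not found in ASH2L, which was lower, or in PHF8, MORF4L1 and POLR2A, which were higher. Its part in these changes was not tested.

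The other lists held single calls, all in MDA-MB-436. Of 4 further H3K36 methyltransferases tested, NSD2 (listed as WHSC1), which dimethylates H3K36, fell by 0.19 in the authors' deposited table (DESeq2 adjusted p = 0.0360), from a mean of 8074 to one of 7088 normalized counts. Of 7 further demethylases tested, PHF8 rose by 0.29 in the authors' deposited table (DESeq2 adjusted p = 0.0124), from 1330.2 to 1619 counts. Of 9 partners of KDM6A in the COMPASS complexes, ASH2L, a core subunit, fell by 0.28 in the authors' deposited table (DESeq2 adjusted p = 0.0298), from 637 to 524 counts. KMT2C and KMT2D, the methyltransferases of those complexes, were not called in either line, nor was any of the 4 PRC1.1 partners of KDM2B. The responses of NSD2, PHF8 and ASH2L did not pass the test of a difference between lines (z test on the DESeq2 estimates, adjusted p = 0.721, 0.223 and 0.111).

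**Figure D5:**
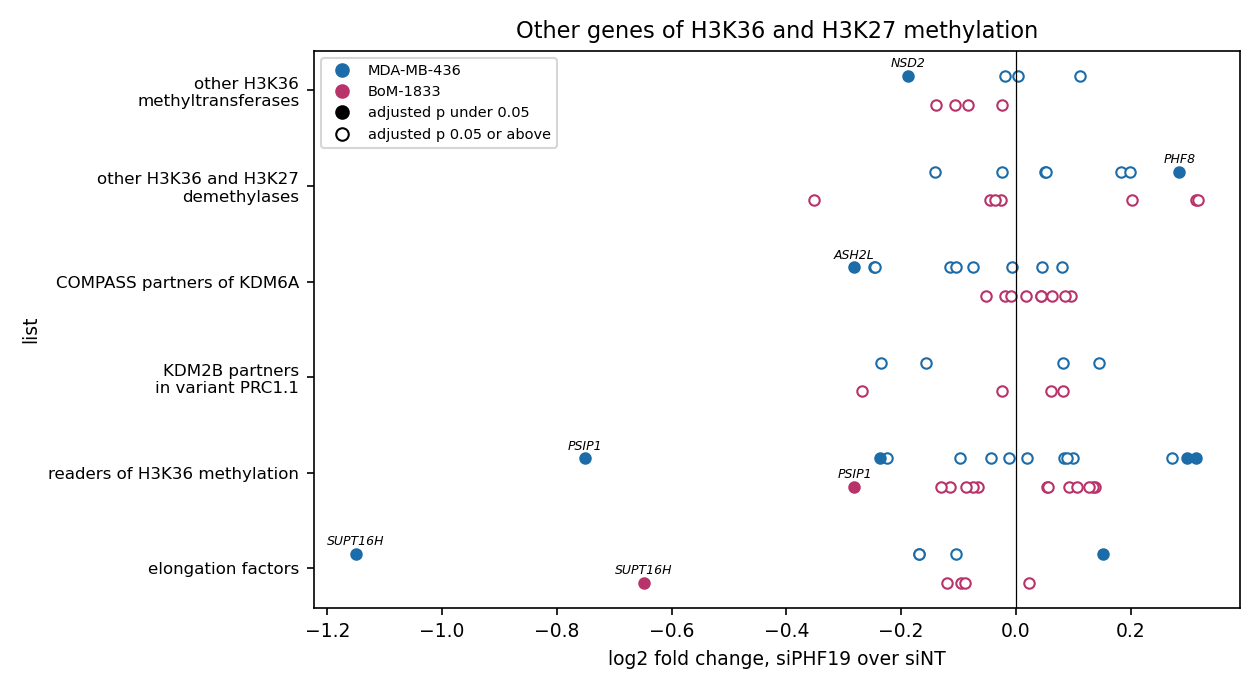
Each point is 1 of the 42 tested genes of 6 lists; the x axis gives the log2 fold change of siPHF19 over siNT in the authors' deposited tables, and filled points have an adjusted p under 0.05. SUPT16H and PSIP1 are filled on the left in both lines, and the other filled points belong to MDA-MB-436.

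For the 3 called genes, the genes with the most similar pattern were sought by Pearson's r of log2(reads per M + 0.5), centred within each line, over 12 libraries and among the 9821 genes that averaged 100 normalized counts or more in each line. For KDM6A these were MYO9A (r = 0.987) and TTC3 (r = 0.985), and for KDM6B FAM172A (r = 0.968) and NT5DC3 (r = 0.964). For KDM4A they were PITPNA (r = 0.977) and APCDD1L (r = 0.975). The libraries share their depth, their length trend and the knockdown itself, so these values describe likeness only. In the authors' deposited tables, PITPNA fell by 0.59 for MDA-MB-436 and by 0.51 for BoM-1833, and APCDD1L by 1.11 and 0.95, larger falls than those of KDM4A.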

How the data were processed

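Groups came from the sample titles. The authors deposited 1 DESeq2 table per line. The library values deposited by the authors are a signal, reads scaled by a size factor for each library. The deposited log2 fold changes, Wald score, p-values and adjusted p-values are the authors' own. STAR, RSEM 1.3.1, DESeq2 1.46.0 and hg38 are named, with no role, in the submitters' processing notes. The gene annotation and the strand setting of the counting are not given in the sources used here. Library values were whole multiples of 1 step (100% of values within 0.01 of a read), so reads were recovered; where RSEM made them they may be rounded estimates. DESeq2 1.42.0 on these reads gave the authors' counts of calls, 1411 in BoM-1833 and 3143 in MDA-MB-436. Genes without a deposited adjusted p were not tested. The difference between lines was a 2-sided z test on the deposited estimates, adjusted over 12290 genes.

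Alternatives used DESeq2, edgeR 4.0.16 and limma 3.58.1 in R 4.3.3, with and without filters, with a replicate block, with a length trend removed (added after the data had been seen), and without each library; the fits were tested on simulated data. Replicate pairs differed by a chi-square per degree of freedom of 2.29 to 24.1, so no library is a copy. Intervals are 95%. Coordinates, exon lengths and 3′ UTRs are from GENCODE 29 (GRCh38), matched by name.

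Members and lists were chosen with earlier results of these data known. Named are the 9 genes, PHF19, from each list the genes called in both lines in 1 direction or otherwise up to 2 with the smallest adjusted p, and the 2 genes most like each called member; others named were picked after their values were seen.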

Additional observations from a re-analysis of the deposited data

Results flagged for a closer look

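KDM6B was set apart because its response differed between the lines by a test of the difference itself. The log2 fold change in MDA-MB-436 minus that in BoM-1833 was 0.45 (standard error 0.14, z test on the DESeq2 estimates, adjusted p = 0.0237 over 12290 genes). In MDA-MB-436 3 of 3 treated libraries lay above every control, and in BoM-1833 the treated libraries were spread around the controls. The call was lost in 8 of 15 alternatives, with adjusted p up to 0.182. In the BoM-1833 controls the gene had 37.5 reads per M, beside 80.4 in MDA-MB-436. The part of that level in the difference was not tested.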

How the results depend on the processing

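Same-numbered libraries were not alike in their deviations, which correlated between -0.307 and 0.0387 over 6 pairs. Of 12 libraries, 2 correlated best with their own number. Trends of whole libraries, such as that of length, enter these correlations, which cannot show whether the numbers stand for shared cultures. With a replicate block DESeq2 called 1610 genes in MDA-MB-436 (3 of the 9 members), and 610 in BoM-1833 (0 of 9, with KDM4A at an adjusted p of 0.168); of the 9 members, 0 then differed between lines. Without 1 library, the number of genes called lay between 1767 and 3801 for MDA-MB-436 and between 746 and 2046 for BoM-1833, members called in BoM-1833 from 0 to 2, and members that differed between lines from 0 to 2.

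KDM6A, KDM6B and KDM4A kept their direction in MDA-MB-436, and KDM4A in BoM-1833, under the 15 alternatives of each. Signs turned for fold changes near 0: ASH1L in MDA-MB-436 was 0.0022 with the block and 0.0025 by limma with a pseudocount of 0.5 or 1, and with the length trend removed NSD1 was -0.031 in MDA-MB-436, SETD2 0.0018 and KDM4B 0.0064 in BoM-1833. Without 1 library the ranges that crossed 0 in MDA-MB-436 were -0.077 to 0.11 (NSD1) and -0.12 to 0.14 (ASH1L). In BoM-1833 they were -0.022 to 0.24 (KDM6A), -0.082 to 0.087 (KDM6B), -0.099 to 0.042 (SETD2), -0.052 to 0.19 (NSD1), -0.20 to 0.053 (ASH1L) and -0.084 to 0.039 (KDM4B). Differences between lines crossed 0 at -0.18 to 0.062 (NSD1), -0.065 to 0.21 (ASH1L) and -0.0036 to 0.084 (KDM2A). With the longest transcript as length or TMM library sizes, 7 control levels of MDA-MB-436 and 8 of BoM-1833 moved by more than 1 SD, and 11 and 10 did not. The cause was not tested for any of these. With 3 libraries a group an exact permutation test cannot go below 0.1.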
